A study of Mus musculus with 2 samples.

Results

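Peaks of Tdg binding were described over an 80 kb window of mouse chromosome 19 that holds the genes of 2 long nuclear RNAs, Malat1 and Neat1. Of the 72970 peaks that the authors deposited for Bio-Tdg, 23 overlapped the window, 5780000 to 5860000 in the build mm9, and the other 2399 peaks of chromosome 19 served for comparison. The study profiled E14 mouse embryonic stem cells by Biotag ChIP-seq, in which a protein that carries a biotinylated tag is pulled down together with its DNA. It held 1 library from Bio-Tdg cells and 1 from cells labelled BirA (mock). The labels give no treatment, time or age, and nothing on whether either line is a single clone. BirA is the bacterial ligase that attaches biotin to such a tag. Only the Bio-Tdg peak list was analysed here, so there is no replicate error, no background measured in the mock, and no total depth. The window was selected on peak positions, widths and scores seen earlier in this same list. Its values are therefore a description, and no test was made on them. Other stretches of chromosome 19 are set beside it only as a scale.

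Tdg, thymine DNA glycosylase, cuts oxidised forms of methylcytosine out of DNA, so that a plain cytosine can be put back by base excision repair. Malat1 is an abundant RNA that stays in the nucleus, where it gathers at the speckles that hold splicing factors, and its processed 3′ end releases a small tRNA-like RNA. Neat1 is the scaffold of a different nuclear body, the paraspeckle. It is made in a short and a long form from the same start site, and the long form is the one that builds the body. In the mouse both genes are read toward lower coordinates, so that Neat1 lies upstream of Malat1 and the end of Neat1 faces the start of Malat1. In the order of the RefSeq genes, Frmd8 comes after Neat1.

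The selection rule placed Malat1 at about 5795690 to 5802671 and Neat1 at about 5824700 to 5845500, which gave lengths of 6982 and 20801 bp. Distances to either end of Neat1 therefore hold only to about 100 bp. The Malat1 start site lay inside a peak, and its promoter is shown because that peak covers it. The sequence is that of RefSeq on GRCm38.p6, minus strand, chr19:5802623-5802922, with 250 bases before the start and 50 after it. Capitals mark CG, the dinucleotide in which most methylcytosine of mouse DNA lies.
Malat1 promoter: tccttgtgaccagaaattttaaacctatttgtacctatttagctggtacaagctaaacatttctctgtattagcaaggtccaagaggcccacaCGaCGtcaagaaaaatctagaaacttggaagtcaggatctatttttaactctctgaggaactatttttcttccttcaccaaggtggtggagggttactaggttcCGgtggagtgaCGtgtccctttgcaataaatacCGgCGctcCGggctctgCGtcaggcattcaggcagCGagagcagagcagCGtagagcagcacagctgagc
It held 10 CG, of which 2 lay after the start, 6 in the last 100 bases before it and 2 farther upstream. CG reads the same on both strands. The median of 32851 RefSeq promoters of the same length was 7 CG, and 43.5% had at least 10. The GC content was 47.0% against a median of 52.7%. The Malat1 promoter thus had slightly more CG than the median promoter and a lower GC content.

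Peaks covered 49.0% of the window (39178 of 80000 bp). Chromosome 19 was cut into 726 adjacent stretches of 80 kb aligned to the window, and their median was 1.62% covered, with 1 peak. No peak was found in 277 of them. Only the window itself reached 49.0% (0.138% of the stretches). At least 23 peaks were found in 0.275% of the stretches. The stretches on either side of the window were also well above the median. The one below held 17 peaks with 30.5% cover, and the one above 12 peaks with 20.5%. The next 3 stretches by covered share were 6260001 to 6340000 with 28 peaks and 44.1%, 6980001 to 7060000 with 16 peaks and 39.5%, and 45060001 to 45140000 with 22 peaks and 38.7%. The window thus held fewer peaks than the stretch next in rank, 6260001 to 6340000, and more covered sequence. On chromosomes 1 to 19 the share of stretches with at least as much cover was 0.0199% (6 of 30079, the window included), and that with at least as many peaks was 0.193%. The stretches ahead of it in covered share lay on chromosomes 4, 11, 10, 12 and 9, with 56.2%, 52.9%, 52.5%, 52.5% and 50.3%. The stretch on chromosome 11 held 2 peaks, the wider of 40889 bp, whereas the one on chromosome 10 held 30 peaks, none wider than 5007 bp.

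**Figure D1:**
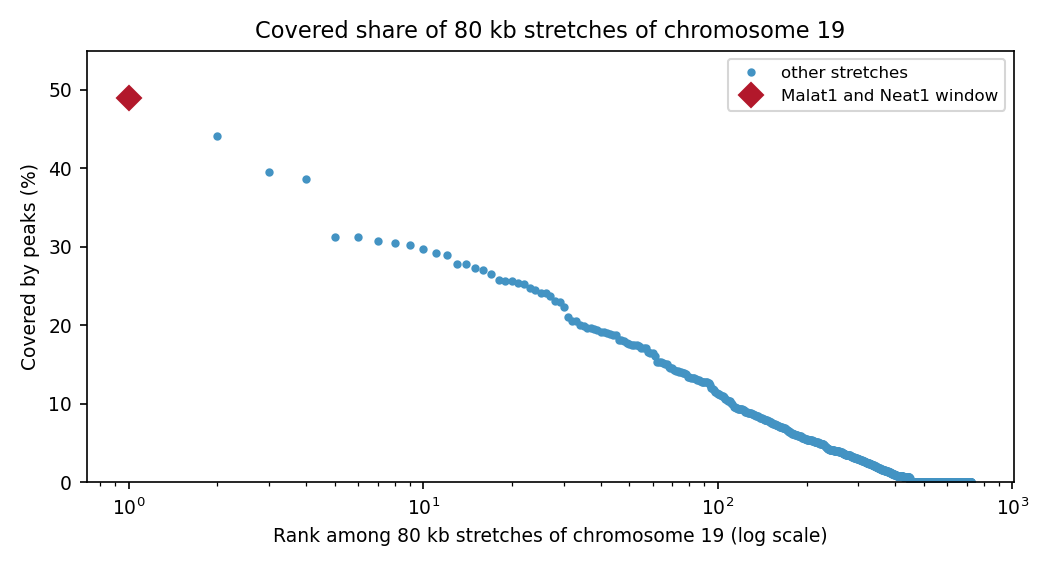
Share of bases under a Bio-Tdg peak (y axis, percent) in 726 adjacent stretches of 80 kb on chromosome 19, ordered by that share (x axis, rank on a log scale). The diamond is the window with Malat1 and Neat1 at 49.0%, and the next stretch reached 44.1%.

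By their medians, the peaks of the window were wider and closer together than the other peaks of chromosome 19 taken as a whole. Widths ran from 548 to 6005 bp with a median of 1267 bp, against a median of 865 bp in the rest of the chromosome. The deposited score, a −10 log10 p-value where MACS 1.4 writes it, ran from 274.68 to 3100 with a median of 968.28, against 566.78. Score is computed from the reads and the width of a peak, so width and score are not separate features. The gaps between neighbouring peaks had a median of 549 bp against 5063 bp in the rest of the chromosome. Median widths, scores and gaps of the stretches next to the window, or of other dense stretches, were not compared separately. Wide peaks with a score of 3100 also occurred there. The stretch just below the window held one of 3394 bp, and 6980001 to 7060000 one of 4254 bp. Neither trait is therefore shown to be particular to the window. Of the 22 gaps, 16 were under 1 kb, where 21.0% of all gaps on chromosome 19 were that short. The score of 3100 was shared by 1649 peaks of the list, so it does not rank them, and 312 peaks of the list scored higher, up to 3233.06. In the window 3 of the 23 peaks had a score of 3100 and none a higher one, and 3.47% of the peaks of chromosome 19 had at least that score. Those 3 peaks made up 38.4% of the covered bases. At the other end, 10 of the 23 peaks were under 1 kb wide. Such widths were usual in the rest of the chromosome, whose median of 865 bp was itself below 1 kb.

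**Figure D2:**
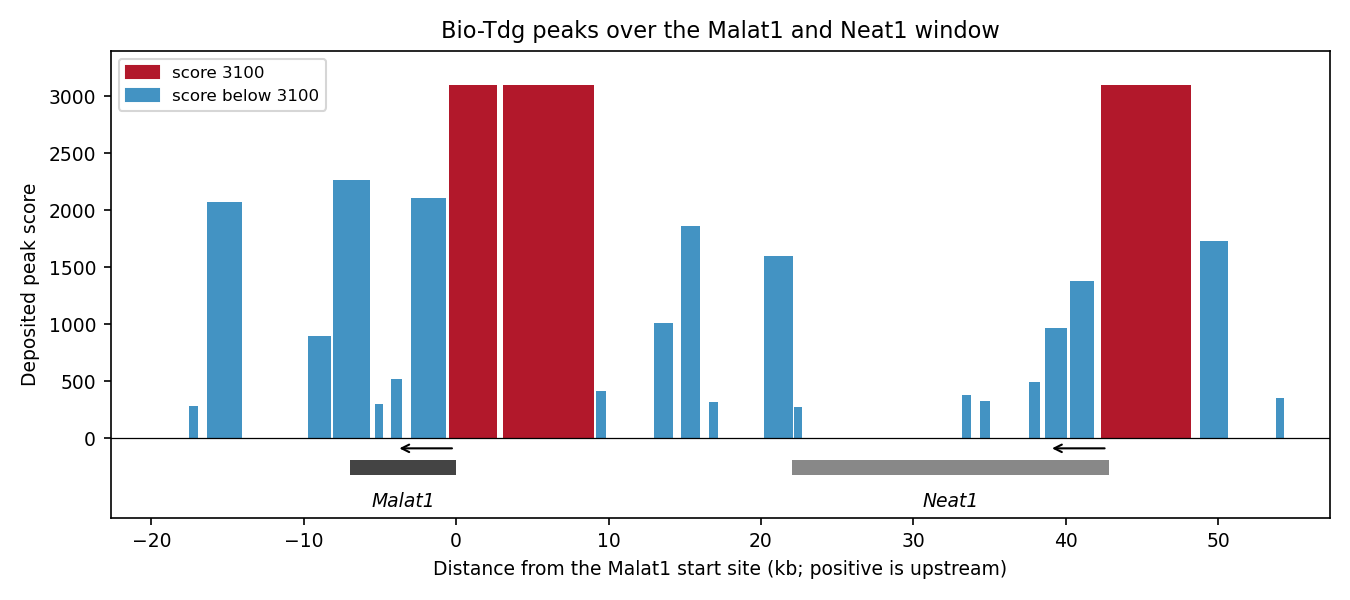
Peaks of the Bio-Tdg library over the window, drawn to scale along the x axis (kb from the Malat1 start site, upstream positive), with the deposited score as height. Dark bars below the axis are the genes and arrows their direction; the 3 red peaks at a score of 3100 lie at and upstream of the start sites of Malat1 and Neat1.

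Malat1 was covered over most of its length, 77.2% (5392 of 6982 bp). Of the adjacent stretches of chromosome 19 with that length, 0.144% had at least this share. The start site lay under the peak 5802183 to 5805325, 3143 bp wide with a score of 3100, which reached 489 bp into the transcript and 2654 bp upstream. Downstream of it, 5799726 to 5802034 was 2309 bp wide with a score of 2103.20. The middle of the gene held 2 narrow peaks. These were 5798406 to 5799107, 702 bp wide with a score of 522.90, and 5797322 to 5797900, 579 bp wide with a score of 300.81. The 3′ end lay under 5794564 to 5797002, 2439 bp wide with a score of 2261.33, of which 53.8% was inside the gene. Cover was thus high at both ends of Malat1 and lower in between, with 43.6% between 3 and 4 kb from the start and 49.5% between 4 and 5 kb.

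The 22.0 kb between the genes was covered for 64.5%. Next to the start-site peak and farther upstream of Malat1 lay the widest peak of the window, 5805744 to 5811748, with 6005 bp and a score of 3100, which ended 9077 bp from the start. Only 1 peak of chromosome 19 was wider. A narrow peak, 5811828 to 5812499 with 672 bp and a score of 412.19, followed after 79 bp. The 10 kb upstream of the Malat1 start were 93.3% under peaks. A separate group of 3 peaks stood between the genes, nearer to the end of Neat1 than to the start of Malat1. It consisted of 5815677 to 5816895 (1219 bp, score 1013.31), 5817411 to 5818677 (1267 bp, score 1865.88) and 5819282 to 5819862 (581 bp, score 316.43). Against the 3′ end of Neat1 lay 5822892 to 5824790, 1899 bp wide with a score of 1600.13. By the approximate bound 4.79% of it, or 91 bp, was inside the gene, which is within the rounding of that bound.

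Neat1 was covered for 29.7% (6175 of 20801 bp), with an uneven spread. Of the adjacent stretches of chromosome 19 with that length, 2.86% had at least this share. Its start lay under the second widest peak of the window, 5845009 to 5850887, with 5879 bp and a score of 3100, which reached about 492 bp into the transcript and 5387 bp upstream. The next 3 peaks into the gene became lower and narrower. They were 5842926 to 5844554 (1629 bp, score 1375.40), 5841290 to 5842764 (1475 bp, score 968.28) and 5840278 to 5840979 (702 bp, score 488.94). After them came 5837070 to 5837700 (631 bp, score 323.14) and 5835860 to 5836466 (607 bp, score 376.38). The first 10 kb from the start were 55.4% covered and the remaining 10.8 kb were 5.92% covered. A stretch of 10475 bp inside the gene had no peak. At its 3′ end the last peak, 5824837 to 5825384, was 548 bp wide and had the lowest score of the window, 274.68. A stretch without a called peak does not show that binding was absent, since neither the calling threshold nor the depth is known.

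The start sites of both genes thus shared the same layout. Each lay under a peak with the shared score of 3100 that extended farther upstream than into the gene. A start site in a peak was common nearby, at 71.3% of 108 promoter starts between 5 and 7 Mb. The share of starts under a peak with a score of 3100 was not counted. The 5 kb upstream of the start were 91.6% covered at Malat1 and 100% at Neat1. Of the adjacent 5 kb stretches of chromosome 19, 0.0688% reached 91.6% (8 of 11635). These include the Malat1 one and the 5 kb next upstream of it. Those stretches were not placed at start sites, so they are no scale for upstream regions of other genes. The first 5 kb of the transcript were 74.6% covered at Malat1 and 81.5% at Neat1. Beyond that the genes differed. Malat1 had peaks along its whole length, whereas Neat1 had an inner stretch of 10475 bp without a peak. The 3′ end of Malat1 lay under a peak. At the 3′ end of Neat1 peaks lay close by, but its bound is too approximate to place the end itself under one. Both genes also had a very wide peak upstream, at Malat1 beside the start-site peak and at Neat1 as part of it. Peaks of at least 5879 bp made up 0.124% of the peaks of chromosome 19, 3 in all. Of these, 2 were in the window, with midpoints 39202 bp apart, and the third, 6913 bp wide, lay elsewhere.

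**Figure D3:**
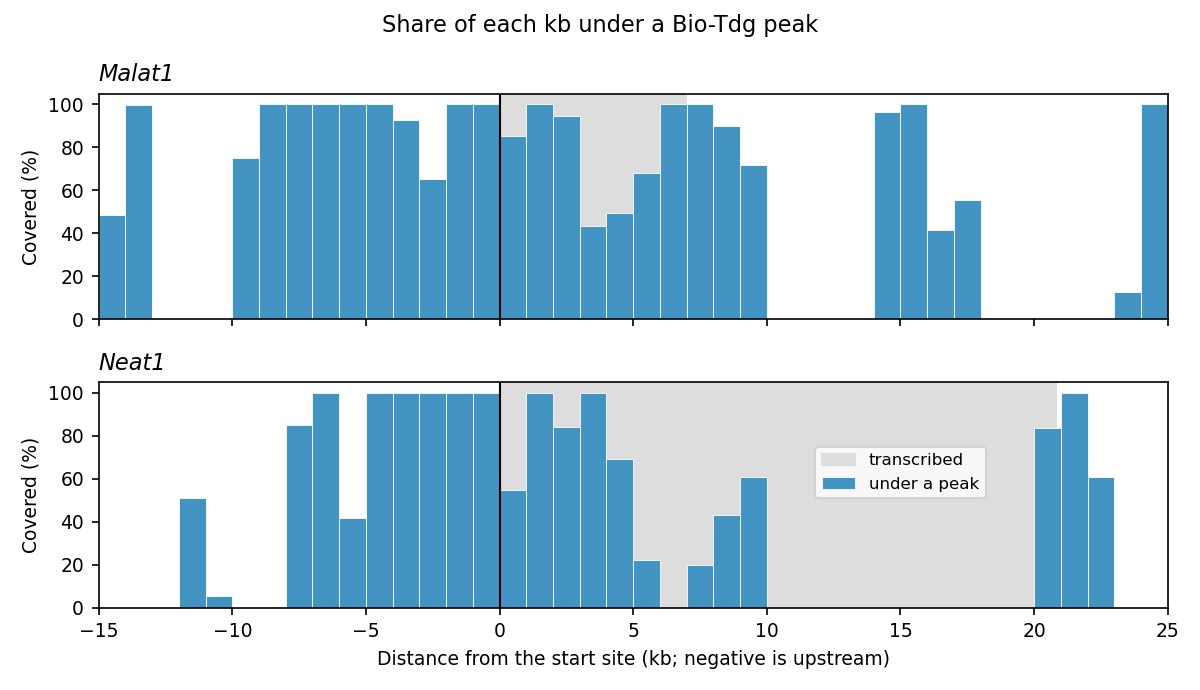
Percent of each kb under a Bio-Tdg peak (y axis) by distance from the start site of Malat1 (top) and Neat1 (bottom) in kb (x axis, upstream negative), with the transcribed length in grey. The 5 kb upstream of both starts are 91.6% and 100% covered, and most of Neat1 beyond 10 kb from its start has no peak.

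The outer parts of the window were covered for 35.5% below Malat1 and 54.0% above Neat1. Below Malat1 lay 5785115 to 5785708 (594 bp, score 282.39), 5786293 to 5788635 (2343 bp, score 2075.85) and 5792956 to 5794463 (1508 bp, score 895.16). The last of these ended 100 bp from the peak over the Malat1 3′ end. Above the Neat1 start-site peak lay 5851471 to 5853352 (1882 bp, score 1728.37) and 5856448 to 5857012 (565 bp, score 352.21). The bounds of Frmd8 in mm9 were not used here, so these 2 peaks are not assigned to a gene. Just outside the window, the next peak below was 1183 bp wide with a score of 1183.48, at 1203 bp from the edge. The next above was 928 bp wide with a score of 829.24, at 10954 bp from the edge.

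When peaks less than 1 kb apart were joined, the 23 peaks formed 7 runs, of which 6 held 2 or more peaks. The longest, 5792956 to 5812499, spanned Malat1 and its upstream region over 19.5 kb with 8 peaks and 88.8% cover. It was the longest run of chromosome 19 and ranked 5 among the 59221 runs of the list. The second, 5840278 to 5853352, spanned the start of Neat1 over 13.1 kb with 5 peaks and 88.5% cover, and ranked 2 on the chromosome and 32 in the list. The longest run of chromosome 19 outside the window, 7335722 to 7346426, had 10.7 kb in 3 peaks with 96.9% cover.

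The Malat1 run was compared with the other long runs of the list. Those ahead of it were on chromosome 11 with 74.8 kb, Y with 26.7 kb, X with 24.9 kb and chromosome 3 with 19.7 kb, and had 7, 6, 7 and 7 peaks. Their widest peaks were 40889, 5977, 10032 and 5463 bp, against 6005 bp in the Malat1 run. The median gap inside the Malat1 run was 319 bp, against 318.5 bp in the chromosome 3 run, 95454108 to 95473808, which was also 88.8% covered and had 2 peaks with a score of at least 3100. Next below in length came chromosome 11, 97517325 to 97536611, with 10 peaks over 19.3 kb and a median gap of 239 bp. Of these 5 runs, the one on chromosome 3 was nearest to the Malat1 run in length and in median gap.

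For the 20 other peaks of the window, without the 3 of score 3100, the number of reads was recovered from score and width. They held 22 to 165 reads, with a median of 55.5, against 42 in the rest of chromosome 19. Their density ran from 38.7 to 96.3 reads per kb with a median of 52.1, against 49.6. The median width of these 20 peaks was 960.5 bp, against 842 bp for the other chromosome 19 peaks with recovered reads, so the 3 peaks left out, which include the 2 widest, weigh on the median width given above. The densest peak was 5817411 to 5818677, between the genes, 14.7 to 16.0 kb upstream of the Malat1 start and 6.02 kb beyond the 3′ end of Neat1. It held 122 reads in 1267 bp, or 96.3 reads per kb (exact 95% Poisson interval 80.0 to 115, counting error only). This density ranked 6 among the 2330 peaks of chromosome 19 with recovered reads and 244 among the 70884 of the list. Chromosome 19 peaks within 100 bp of its width had a median of 60.9 reads per kb, and 2 of those 156 peaks, itself included, were at least as dense. It was singled out after its value had been seen. The peaks over the body of Malat1 and its 3′ end had 41.5 to 67.7 reads per kb, and those wholly inside Neat1 had 40.1 to 62.6. No density was computed for the 3 peaks with a score of 3100, which include both start sites.

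**Figure D4:**
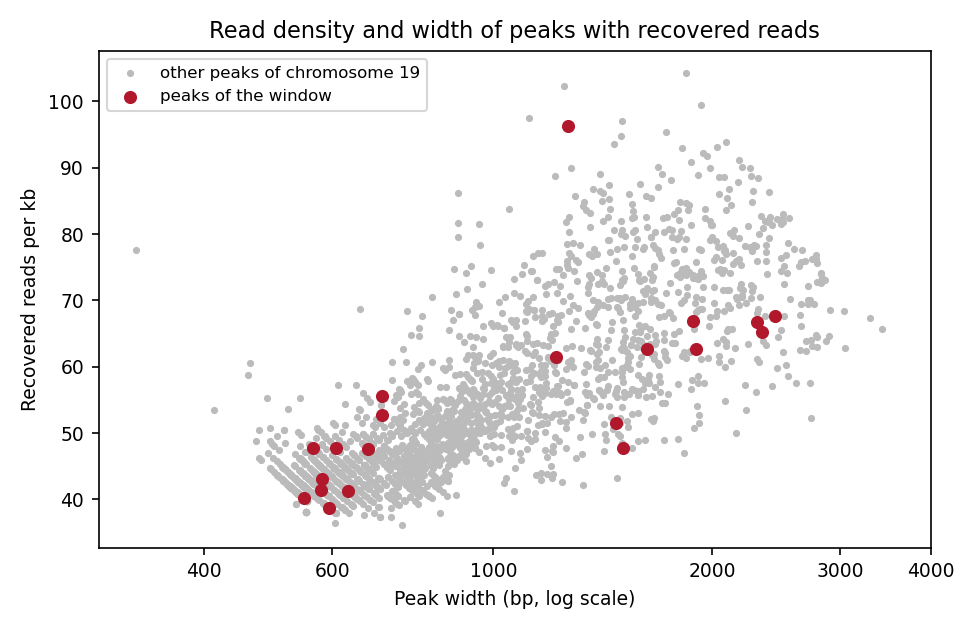
Recovered reads per kb (y axis) against peak width (x axis, bp, log scale) for the 2330 peaks of chromosome 19 with recovered reads. Red points are the 20 peaks of the window; 1 of them, at 1267 bp and 96.3 reads per kb, stands above the others.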

How the data were processed

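Each peak of the Bio-Tdg list has a position and a score, which is the authors' deposited value. CASAVA 1.8, Bowtie 0.12.7, MACS 1.4.1 and mm9 are listed in the submitters' processing notes, with no role or order. Threshold, filters and control of the peak calling are not given there. No file of the mock was analysed.

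The window and approximate gene bounds came from the selection rule, and any overlap made a peak a member. Members, comparisons and alternatives were chosen with earlier results of these data known. All peaks of the window are named, and for comparison the 5 longest runs, the longest of chromosome 19 outside the window, the runs next in length and the 3 next stretches by cover. Stretches of 5 kb and of the gene lengths were added after seeing the values.

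Promoter starts of GRCm38.p6 were set against the peaks to check the frame of the bounds. The share near the window is also given beside the start sites of both genes. Between 5 and 7 Mb of chromosome 19, 71.3% of 108 starts lay in a peak with no shift, and no shift tried gave more. Beyond 9 Mb, 4.25% of 800 did, and 49.1% with a shift of 74.5 kb. Positions near the window were therefore taken to coincide in both builds.

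Reads per peak came from a single fitted Poisson rate of 1.13 reads per kb (width at least 370 bp), under which a score is −10 log10 of the chance of more reads than counted. For all 70884 peaks below a chosen score cutoff, with scores up to 3049.44, the score fell within 0.01 units of that of a whole number. The cutoff lay just above that score, near the limit of double-precision p-values. For the 2086 peaks with higher scores no recovery was attempted. On simulated peaks, scored by the same formula under a single known rate, 100% of the reads below the cutoff were recovered. This checks only the inversion of the formula. It does not bear on whether the numbers recovered here are true read counts. Analysis used Python 3.11.15 with pandas 2.3.3, numpy 2.4.6, matplotlib 3.10.9 and scipy 1.17.1.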

Additional observations from a re-analysis of the deposited data

How the results depend on the processing

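With peaks scoring 500 or more the window held 14 peaks and 42.1% cover, and with 1000 or more 11 peaks and 37.5%. Without the widest peak the share was 41.5%. Bounds widened by 2 kb on each side gave 84.6% for Malat1 and 40.3% for Neat1, and scores from 1000 upward gave 58.9% and 10.6%. These follow from the settings themselves, and the order of the genes stayed. The window ranked 1 by covered share on chromosome 19 with stretches shifted by 40 kb, with scores from 1000 upward, and against 57944 placements in 1 kb steps outside it, a setting added after seeing the data, whose highest value was 45.2%. By number of peaks it ranked 2. The longest run was 12774 bp when peaks less than 500 bp apart were joined, 19544 bp at 2 kb and 40270 bp at 5 kb, with ranks of 12, 47 and 132 in the list, so its place among long runs depends on the joining distance. The median distance between midpoints was 2499 bp in place of the gap of 549 bp. Median width and score changed little without the widest peak, to 1243 bp and 931.72, but a median hardly depends on 1 peak. Without the 3 peaks of score 3100 the median width was 960.5 bp. No paired analysis was possible because Bio-Tdg and mock are single libraries and the mock was not analysed. Depth is unknown, and no replicate or mock value bears on any of these results.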
